A study of Saccharomyces cerevisiae with 12 samples.

Results

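The transcriptome of the hal4hal5 double mutant of Saccharomyces cerevisiae was set against that of its wild type in the BY4741 background, in cells grown in YPD adjusted to pH 4.5. The comparison rests on 4 two-colour arrays of a series of 12, chosen by their labels as replicates 1 to 4 of the BY4741 set. On each array hal4hal5 RNA was hybridised against wild-type RNA, with the mutant in Cy5 and the wild type in Cy3 on replicates 1 and 3 and the dyes exchanged on replicates 2 and 4. The labels give the mutant genotype as hal4hal5 and its reference as wild type, both in BY4741, both grown at 28 °C in the same rich glucose medium to log phase. The other sets of the series hold hal4hal5 against wild type in W303 at pH 4.5 and at pH 6.0, with 4 arrays each.

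The labels name neither the alleles, the disruption markers nor the auxotrophic markers of either strain, nor whether the mutant is a single clone. The design text speaks of biological replicates, although the description of each of the 4 arrays carries the same replicate number, so the p-values measure the spread between these arrays. In RNA from whole cultures, a change in the share of cells in a given state and a change in RNA per cell cannot be told apart.

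HAL4 (listed as SAT4, YCR008W) and HAL5 (YJL165C) encode related protein kinases of the fungal Npr1/Hal5 family. They are known for stabilising plasma membrane nutrient transporters, the potassium transporters Trk1 and Trk2 among them, and cells without both take up potassium poorly. Potassium uptake is driven by the membrane potential that the proton pump Pma1 builds, so that potassium supply, external pH and the energy spent at the plasma membrane are linked in yeast.

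Each value is a log ratio, read here as log2 of hal4hal5 mutant over wild type, for 1 open reading frame on 1 array. Of 5994 open reading frames, 4974 had a value on all 4 arrays and 487 on 3, and these 5461 were tested. Arrays held 5166 to 5696 values, and array medians lay between -0.009 and 0.006. No label or header states the base of the logarithm. Under a natural logarithm every log2 value would be 1.44 times as large in size.

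Arrays of the same dye orientation correlated with r = 0.84 (replicates 1 and 3) and r = 0.75 (replicates 2 and 4) across genes, and arrays of opposite orientation with r between 0.51 and 0.68. As deposited, before any sign was turned, the 4 pairs of opposite orientation correlated between -0.68 and -0.51, so the table follows the dyes and not the strains. Which dye is the numerator was taken from the deleted genes. HAL5 had log2 ratios of -0.78, -0.01, -0.56 and -0.67 on replicates 1 to 4, and SAT4 had -0.73 on replicate 1 and -0.96 on replicate 3, with no value on the other arrays. Both were thus lower in the mutant where the table is read as Cy5 over Cy3, and that direction is likely but not stated. Read as Cy3 over Cy5, every sign below would turn. Because these values set the direction, they are no finding. The ratios of HAL5 and SAT4 are small for deleted genes, and whether ratios in this table are compressed was not tested. The mean of HAL5 was -0.51 ± 0.13 (SE, adjusted p = 0.027), and that call was lost without replicate 1, 3 or 4.

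**Figure D1:**
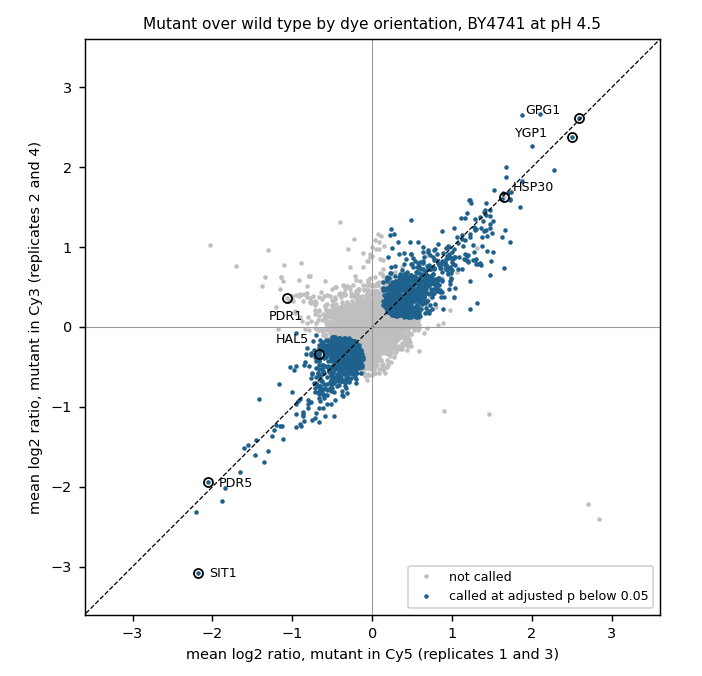
Mean log2 ratio, mutant over wild type, of each gene with the mutant in Cy3 (vertical axis, replicates 2 and 4) against that with the mutant in Cy5 (horizontal axis, replicates 1 and 3). Each point is 1 gene, called genes are blue, and the dashed line marks equal means. GPG1 (2.59 with the mutant in Cy5, 2.62 in Cy3) and PDR5 lie near the line, SIT1 lies below it, and PDR1 has opposite signs in the 2 orientations.

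The test, limma with 1 mean per gene and a Benjamini-Hochberg adjusted p below 0.05, called 1714 genes, 31.4% of those tested. In the mutant 871 genes (15.9%) were higher and 843 (15.4%) lower. Changes of at least 2-fold were rarer, with 79 genes higher (1.45%) and 25 lower (0.458%). All 79 and all 25 kept their direction on every array that measured them, and all were called with a dye term in the fit. They were chosen by their mean and spread on these same arrays, so this is no separate support. With the 4 arrays alone, an exact sign-change permutation test of a single gene cannot go below p = 0.125, so every call leans on the spread that limma shares across genes. The median SE of a gene mean was 0.078. Without replicate 3 the count of calls was 739, and without replicate 4 it was 909. Leaving out replicates 1, 2, 3 and 4 left 610, 721, 401 and 519 genes called higher and 568, 639, 338 and 390 lower. List counts below with an array left out stand against that drop over all genes.

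**Figure D2:**
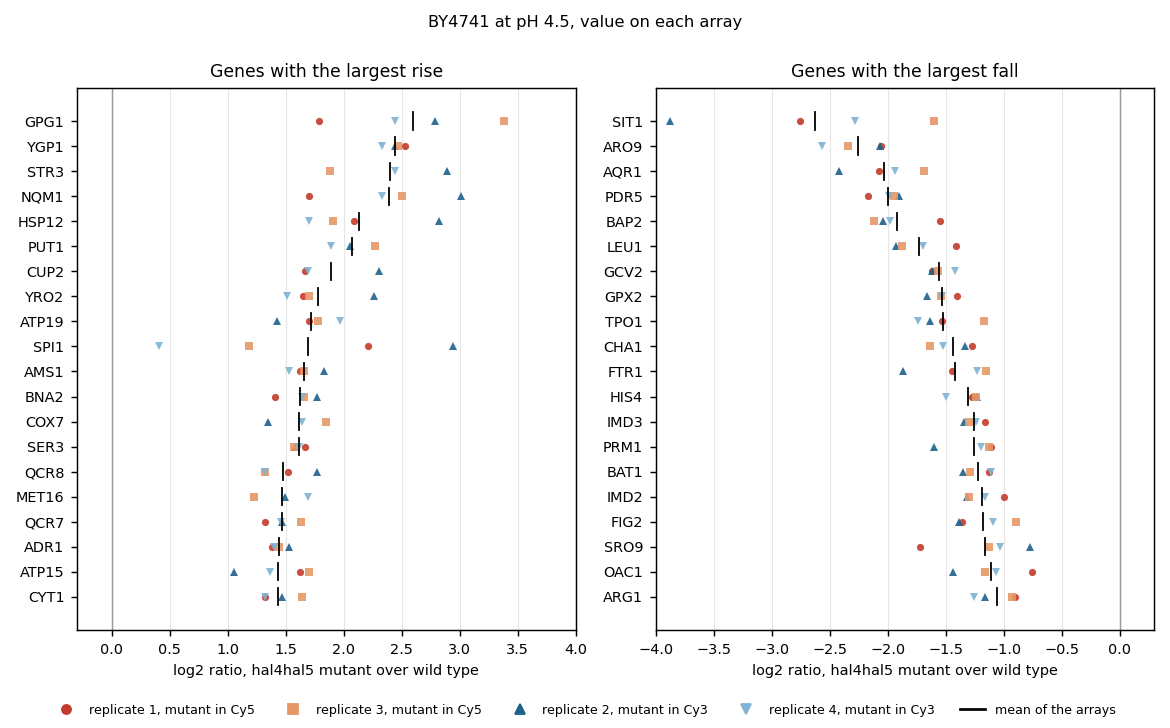
Log2 ratio, mutant over wild type, on each array for the 20 genes with the largest rise (left) and the 20 with the largest fall (right) among called genes with a symbol and 1 sign on every array. Points are arrays, by replicate and dye orientation, and black bars are means. GPG1 spans 1.79 to 3.38, YGP1 lies within 2.33 to 2.53, and SPI1 spreads from 0.41 to 2.94.

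Genes at the head of the list differed in how closely the arrays agreed. YGP1 (YNL160W), which encodes a secreted cell wall glycoprotein, had log2 ratios of 2.53, 2.44, 2.47 and 2.33, with little spread. GPG1 (YGL121C), whose product is a proposed G-protein subunit, had 1.79, 2.79, 3.38 and 2.44. NQM1 (YGR043C), which encodes a transaldolase, had 1.70, 3.01, 2.50 and 2.33. For these genes every array lay far above 0, and the order of the arrays differed from gene to gene. SPI1 (YER150W), a gene for a cell wall protein induced by weak acid, had 2.21, 2.94, 1.18 and 0.41. Its mean of 1.69 ± 0.38 (SE, adjusted p = 0.018) thus covers a wide range, and the call was lost without replicate 1 or replicate 3. SER3, which encodes the first enzyme of serine synthesis from glycolysis, had 1.67, 1.58, 1.57 and 1.61. BNA2, for the first step of NAD synthesis from tryptophan, had 1.41, 1.77, 1.66 and 1.64. Both of these were 3-fold changes with almost no spread, at 3.05-fold and 3.07-fold.

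The largest falls included several transporter genes beside enzymes such as ARO9, described further on. PDR5 (YOR153W), the main ABC-type multidrug exporter, had log2 ratios of -2.17, -1.90, -1.95 and -1.99, and its mean of -2.0 ± 0.070 (SE, adjusted p = 7.7e-05) is a 4.00-fold fall. AQR1 (YNL065W), an exporter of acids and amino acids, had -2.08, -2.42, -1.69 and -1.94. BAP2 (YBR068C), a permease for branched-chain amino acids, had -1.55, -2.04, -2.12 and -1.98. In each of these every array lay well below 0. SIT1 (YEL065W), a transporter of iron-loaded siderophores, had -2.76, -3.88, -1.60 and -2.28, the lowest mean of all called genes and a wide spread. SRO9, for an RNA-binding protein of translation, had -1.72, -0.77, -1.13 and -1.03, with replicate 1 apart from the rest.

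Respiratory chain genes were higher in the mutant across nearly every complex. Each BY4741 list count below stands against 15.9% of all genes tested called higher and 15.4% called lower. Of 9 tested subunits of the cytochrome bc1 complex, which passes electrons to cytochrome c, 8 rose and 0 fell, with a median log2 ratio of 1.30 against -0.01 for all genes tested. All 15 tested genes of the ATP synthase and its regulators rose, with a median of 1.01. Of 9 nuclear-encoded subunits of cytochrome c oxidase, 8 rose and 0 fell, with a median of 0.93. Succinate dehydrogenase had 3 of 4 subunits higher, and all 6 dehydrogenases that feed the chain from NADH, glycerol phosphate or lactate rose, with medians of 0.89 and 0.37. The count for cytochrome c oxidase was 6, 7, 5 and 5 without replicates 1, 2, 3 and 4, and that for the dehydrogenases 2, 5, 2 and 3. Part of these losses are genes left with too few values to test.

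**Figure D3:**
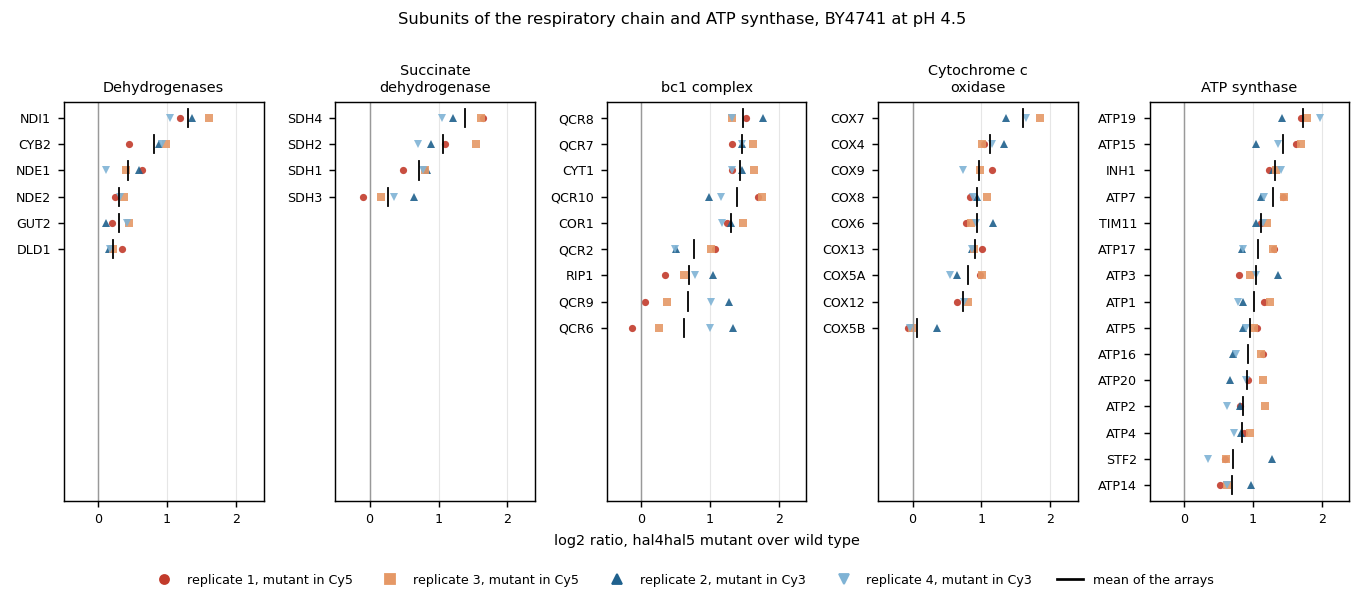
Log2 ratio, mutant over wild type, of each tested subunit on each array, by complex. Points are arrays, black bars are means, and genes are ordered by mean within a complex. All 15 ATP synthase genes lie above 0 on all arrays that measured them, COX5B lies near 0, and QCR6 and QCR9 are high only where the mutant was in Cy3.

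Within the bc1 complex the subunits fell into uneven groups. CYT1, for cytochrome c1, had log2 ratios of 1.32, 1.47, 1.64 and 1.32, and QCR7 had 1.32, 1.47, 1.63 and 1.46. COR1, a core subunit, had 1.24, 1.30, 1.48 and 1.18. These rose by 2.46-fold to 2.77-fold with little spread. RIP1, for the iron-sulphur subunit, had a smaller mean of 0.70 ± 0.11 (SE, adjusted p = 0.0061). QCR6 had -0.13, 1.33, 0.26 and 1.00, and QCR9 had 0.06, 1.28, 0.38 and 1.01. Both were thus high with the mutant in Cy3 and near 0 with the mutant in Cy5. QCR9 lost its call without replicate 2, 3 or 4, and QCR6 was called with a dye term (adjusted p = 0.0039) or without replicate 1. QCR8 had 1.52, 1.77, 1.32 and 1.32. It lies next to the deleted HAL5 on chromosome X in the RefSeq R64 annotation.

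Cytochrome c oxidase subunits moved together apart from 1 isoform. COX7 had log2 ratios of 1.35, 1.85 and 1.64 on replicates 2, 3 and 4, and COX4 had 1.03, 1.32, 1.01 and 1.16 on replicates 1 to 4. COX5A, the isoform of subunit 5 used in air, rose by 0.80 ± 0.096 (SE, adjusted p = 0.0023). COX5B, its alternative known from cells short of oxygen, had a mean of 0.06 ± 0.088 (SE, adjusted p = 0.61). Of cytochrome c itself, CYC7 was tested and had 0.18, 0.03, -0.34 and -0.76 (adjusted p = 0.31), and CYC1 had a value on 1 array only.

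ATP synthase genes covered rotor, stalk and catalytic subunits alike. ATP19, for a small membrane subunit, had log2 ratios of 1.70, 1.42, 1.78 and 1.97, the largest rise of the group. ATP15, for the epsilon subunit of the central stalk, had 1.62, 1.05, 1.70 and 1.36. ATP1 and ATP2, for the alpha and beta subunits of the catalytic core, had means of 1.01 ± 0.094 and 0.86 ± 0.097 (SE, adjusted p = 8.4e-04 and 0.0018). INH1, for the inhibitor that keeps the enzyme from running backwards, rose as well, with 1.24, 1.29, 1.34 and 1.41. The smallest rises were those of ATP14 at 0.69 and of STF2, a regulator gene that is also stress-responsive, at 0.71. The STF2 call was lost without replicate 3.

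Other mitochondrial groups had smaller medians, and some did not rise. NDI1, for the internal NADH dehydrogenase that takes the place of complex I in yeast, had log2 ratios of 1.19, 1.36, 1.61 and 1.05, and CYB2, for lactate dehydrogenase, 0.45, 0.88, 0.99 and 0.92. In the citrate cycle without succinate dehydrogenase, 6 of 10 genes rose and 0 fell (median 0.41), with MDH1 at 0.95 and KGD2 and LSC2 at 0.65 each. The count was 4 without replicate 3. Proteins of the mitochondrial ribosome had 32 of 67 genes higher and 0 lower (median 0.24), with the largest means at 0.67 for MRPL37 and 0.62 for MRPL4. Without replicate 3 or 4, 15 of 62 and 14 of 63 rose. Over all genes the count of rises went from 871 to 401 and 519. Assembly factors had 9 of 27 genes higher, 4 and 3 without replicates 3 and 4, and a median of 0.12. Haem synthesis had 0 of 8 higher and 1 lower, and mitochondrial protein import 3 higher and 1 lower of 21, with 5 higher without replicate 2. Of 21 mitochondrial carrier genes 9 rose and 2 fell (median 0.12), and 5, 7, 5 and 5 rose without replicates 1, 2, 3 and 4. PET9, the main ADP/ATP carrier gene, had 0.92, 0.84, 0.94 and 0.72, whereas OAC1, for the oxaloacetate carrier that also serves leucine synthesis, had -0.76, -1.44, -1.16 and -1.07.

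Stress and weak-acid genes formed a second higher group, with more spread between arrays. Of 8 tested genes listed as targets of Haa1, the transcription factor for weak-acid tolerance, 6 rose and 0 fell, with a median of 1.25. The list median was 1.45, 2.26, 0.99 and 0.40 on replicates 1 to 4, and the count 4, 6, 3 and 5 when each was left out. YRO2, for a membrane protein of the Hsp30 family, had 1.65, 2.26, 1.70 and 1.51. Of 10 small heat shock and hydrophilin genes, 6 rose and 0 fell (median 0.64). HSP12, for a membrane-stabilising hydrophilin, had 2.09, 2.82, 1.91 and 1.70, and DDR48, a DNA damage-responsive gene, had 1.20, 1.51, 1.18 and 1.36. HSP30, a negative regulator of Pma1, had 2.75, 3.65, 0.54 and -0.40. It was thus very high on replicates 1 and 2 and not on 3 and 4, and was not called (1.64 ± 0.63 SE, adjusted p = 0.092) except without replicate 4 (2.31, adjusted p = 0.046). HSP26, the main small heat shock protein gene, had 1.04, 1.46, 0.37 and -0.75 and was not called either (adjusted p = 0.26).

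Heat shock chaperones, listed for the cytosol and mitochondria together, did not share that rise. Of 18 tested heat shock chaperone genes 1 rose (5.56%) and 4 fell (22.2%), against 15.9% and 15.4% of all genes. HSC82, the constitutive Hsp90 gene, had log2 ratios of -0.74, -0.53, -0.62 and -1.08. SSA2 had -0.60, -0.51, -0.53 and -1.19. SSA2, SSA3 and the other cytosolic Hsp70 genes are close in sequence, so that single values are uncertain. HSP10, the mitochondrial co-chaperonin gene, rose by 0.45 ± 0.093 (SE, adjusted p = 0.014). Trehalose and glycogen genes had 3 of 18 higher (16.7%, near the 15.9% of all genes) and 0 lower. Their list medians were 0.12, 0.64, 0.27 and -0.21 on replicates 1 to 4. For both groups replicate 2 gave the highest median and replicate 4 the lowest, and without replicate 2 the count of lower chaperones was 7, while without replicate 4 the count of higher trehalose and glycogen genes was 6.

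**Figure D4:**
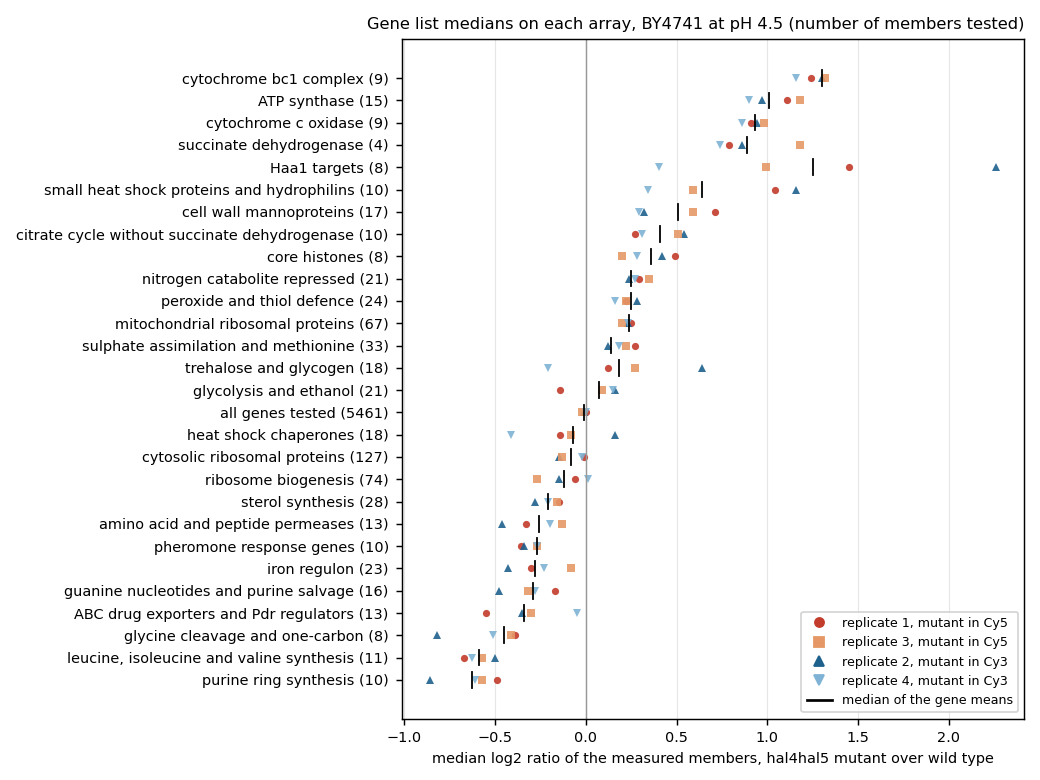
Median log2 ratio, mutant over wild type, of the tested members of 27 gene lists and of all genes tested, on each array. Points are arrays and black bars the median of the gene means. The bc1 complex lies between 1.16 and 1.32 on the arrays, Haa1 targets spread from 0.40 to 2.26, and purine and leucine synthesis lie below 0 on all arrays.

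Redox genes moved in both directions. Of 24 genes of peroxide and thiol defence, 8 rose and 3 fell. PRX1, for the mitochondrial peroxiredoxin, had log2 ratios of 1.52, 1.35, 1.34 and 1.06, and GPX1, for a glutathione peroxidase, 1.48, 1.57, 1.27 and 0.47. GPX2, for another glutathione peroxidase, went the other way with -1.40, -1.66, -1.54 and -1.53. The opposite signs of GPX1 and GPX2 held on each array. GSH2, for glutathione synthetase, fell by 0.58, and the count of higher genes was 4 without replicate 3. Of 8 copper genes 4 rose and none fell. Among them CUP2, for the copper-sensing activator, had 1.67, 2.30 and 1.69 on replicates 1, 2 and 4, and FRE7, a copper-responsive reductase gene, had 0.59, 0.72, 0.87 and 0.49. The metallothionein genes CUP1-1 and CUP1-2, at 1.32 and 1.38, are near-identical copies and cannot be told apart. The count of 4 became 2, 3, 3 and 2 without replicates 1, 2, 3 and 4.

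Cell wall and chromatin genes also contributed rises. Of 17 mannoprotein genes 10 rose and 1 fell (median 0.51). YGP1 and SPI1 in this list are also listed Haa1 targets, and YRO2 is in the Haa1 and small heat shock lists. Such genes are thus counted in more than 1 list. PST1, which responds to cell wall damage, rose by 0.83 ± 0.096 (SE, adjusted p = 0.002), and TIP1, for a cell wall mannoprotein, had 1.17, 0.59, 1.43 and 0.99. The core histone genes rose in 7 of 8 cases, by small amounts (median 0.36), with HHF1 and HHF2, both for histone H4, at 0.49 and 0.48. Leaving out replicates 1, 2, 3 and 4 left 3, 4, 5 and 4 of these 7 calls. HHF1 and HHF2 encode the same histone, so the 8 values may not be separate measurements.

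Sulphur and nitrogen genes moved in both directions, with more rises than falls. Of 33 genes of sulphate assimilation and methionine metabolism, 14 rose and 4 fell, with a median of 0.14. MET16, for the reductase of activated sulphate, had log2 ratios of 1.49, 1.23 and 1.69 on replicates 2, 3 and 4. MET5 and MET10, for the subunits of sulphite reductase, had means of 1.36 ± 0.083 and 1.26 ± 0.086 (SE, adjusted p = 2.0e-04 and 2.9e-04). STR3, a cystathionine lyase gene, had 2.89, 1.88 and 2.44 on the same arrays as MET16. CYS4, for the enzyme that makes cystathionine, fell by 0.41. Without replicate 3 or 4 the count of rises was 8 and 9, and without replicate 2, 3 or 4 the count of falls was 1. Among genes repressed by good nitrogen sources, 10 of 21 rose and 2 fell (median 0.25). PUT1, for proline oxidase, had 2.05, 2.27 and 1.89 on replicates 2, 3 and 4. CAR2, of arginine breakdown, had 1.5, 1.11, 1.37 and 0.79. The 2 that fell were GAP1, the general amino acid permease gene, with -0.47, -0.88, -0.20 and -0.53, and GLN1, for glutamine synthetase, with -0.45, -0.58, -0.57 and -0.43. The GAP1 call was lost without replicate 4.

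Carbon metabolism changed at few points. Of 21 genes of glycolysis and ethanol formation, 2 rose (9.52%) and 3 fell (14.3%), against 15.9% and 15.4% of all genes tested. Without replicate 3 or 4 the count of falls was 1. HXK1, for the hexokinase used away from high glucose, had 0.81, 1.69, 1.31 and 0.57, and PFK2, a phosphofructokinase subunit gene, had -0.95, -0.43, -0.55 and -0.73. ADR1, for an activator of glucose-repressed genes, had 1.38, 1.53, 1.44 and 1.40, all close to each other. In the list for gluconeogenesis and the glyoxylate cycle 6 of 14 genes rose and 0 fell, among them ACH1, for acetyl-CoA hydrolase, at 0.98 and ICL1, for isocitrate lyase, with 0.27, 0.96, 0.40 and 0.87. CIT2, the peroxisomal citrate synthase gene read as a marker of the retrograde response, had 1.40, 1.49, 1.47 and 1.31, while its regulators RTG1, RTG2 and RTG3 were not called, with means of -0.24, 0.05 and -0.06.

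Purine and one-carbon genes fell. Of 10 genes of purine ring synthesis 8 fell and 0 rose, with a median of -0.63, and the count was 8 whichever array was left out. ADE13, for adenylosuccinate lyase, had log2 ratios of -0.85, -1.04, -0.76 and -0.79. ADE17, for the last enzyme of the ring, had -0.75, -1.08, -0.56 and -0.69. ADE16, the paralogue of ADE17, had -0.15 ± 0.064 (SE, adjusted p = 0.13). The paralogues thus differed, and replicate 2 gave the lowest list median, -0.86. Guanine synthesis and purine salvage had 9 of 16 genes lower and 0 higher. IMD2, IMD3 and IMD4, for IMP dehydrogenase, had means of -1.19, -1.26 and -1.02, but these genes are near-identical and their single values are uncertain. Without replicate 3 the count was 6. HPT1, for salvage of hypoxanthine, had -0.31, -0.69, -0.88 and -0.45.

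In the glycine cleavage and one-carbon list 6 of 8 genes fell. GCV2, for the glycine decarboxylase subunit, had -1.62, -1.62, -1.57 and -1.42, while GCV1 and GCV3, for the other dedicated subunits, had -0.20 and -0.67. SHM2 and MTD1, of the cytosolic folate pathway, had means of -0.73 ± 0.074 and -0.88 ± 0.067 (SE, adjusted p = 0.0012 and 4.9e-04). The GCV1 and SHM1 calls were lost whichever array was left out, so that 4 genes remained called each time. Serine genes stood on both sides. CHA1, for the deaminase that breaks serine and threonine down, had -1.27, -1.33, -1.64 and -1.52, whereas SER3 and its paralogue SER33 rose by 1.61 and 0.57, and SER1 and SER2, for the next steps of synthesis, fell by 0.42 and 0.43.

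Leucine, isoleucine and valine synthesis had 7 of 11 genes lower and 0 higher (median -0.59), again with the same count of 7 whichever array was left out. LEU1, for isopropylmalate isomerase, had log2 ratios of -1.41, -1.93, -1.88 and -1.70. BAT1, for the mitochondrial aminotransferase of these amino acids, had -1.13, -1.35, -1.29 and -1.11, while BAT2, its cytosolic counterpart, had a mean of 0.16 (adjusted p = 0.12). ILV5 had -0.82, -1.35, -0.87 and -1.01. LEU3, for the activator of the pathway, had -0.12 (adjusted p = 0.18). Single steps of other pathways fell as far. HIS4, of histidine synthesis, had -1.27, -1.23, -1.24 and -1.50, and ARO9, an aromatic aminotransferase gene, had -2.06, -2.07, -2.34 and -2.57. The rest of the aromatic list, 13 genes tested in all, had 1 higher and 3 lower beside ARO9, and 1 lower in all without replicate 3 or 4. ARG1, for argininosuccinate synthetase, had -0.90, -1.16, -0.93 and -1.26, and LYS20, for homocitrate synthase, -0.64, -0.88, -0.80 and -0.73.

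Amino acid permease genes were lower in 6 of 13 cases and higher in 2. TAT1 had log2 ratios of -0.54, -1.20, -0.76 and -0.66, and DIP5, for a permease of acidic amino acids, -0.68, -0.87, -0.37 and -0.65. AGP1, for a broad-range permease, rose instead, with 0.97, 0.91, 1.02 and 0.98. The permeases therefore did not move as a block. Their count of falls was 4, 5, 4 and 3 without replicates 1, 2, 3 and 4.

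Iron uptake genes were lower. Of 23 tested genes of the iron regulon 11 fell and 1 rose, with a median of -0.28. FTR1 (YER145C), for the high-affinity iron permease, had log2 ratios of -1.45, -1.87, -1.15 and -1.23. FET3, for the multicopper oxidase that works with it, had -1.27, -1.57, -0.65 and -0.37. FIT3, for a cell wall protein that retains siderophore iron, had -0.30, -0.90, -0.74 and -0.70. All of these lay below 0 on every array. The activator genes differed, with AFT1 at -0.54 ± 0.094 (SE, adjusted p = 0.0076) and AFT2 at 0.42 ± 0.061 (SE, adjusted p = 0.0045). FIT2, a close relative of FIT3, and FTH1, the vacuolar relative of FTR1, had means of 0.00 and 0.03. AFT1, FIT1, FIT2 and FTH1 were picked for mention after their values were seen.

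Exporters of drugs and organic acids fell as well. Of 13 tested ABC exporters and Pdr regulators 6 fell and 0 rose (median -0.34). SNQ2, for a multidrug exporter, had log2 ratios of -0.81, -1.07, -0.59 and -1.10, and YOR1, for an exporter of organic anions, -0.73, -0.81, -0.60 and -0.69. PDR1, for the activator of PDR5, had -1.10, 0.71, -1.04 and 0.01, so that its sign followed the dye of the mutant and its mean of -0.36 was not called (adjusted p = 0.4). Among exporters driven by the proton gradient 4 of 12 fell and 1 rose. TPO1, for a polyamine exporter, had -1.53, -1.64, -1.17 and -1.74, and TPO2, a Haa1 target, had 1.26, 0.81 and 0.38 on replicates 1, 3 and 4. The ABC count was 4 without replicate 3.

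Potassium transport, the function closest to the deleted kinases, changed in single genes. Of 10 tested genes for potassium, sodium and proton transport 4 fell and 1 rose. TRK2, for the second potassium importer, had log2 ratios of -0.73, -1.06, -0.42 and -0.87. TRK1, for the main importer, had 0.06, 0.33, 0.16 and 0.32 (adjusted p = 0.061). TRK2 was thus below 0 and TRK1 above 0 on every array. QDR2, for an exporter that also affects potassium, had -0.73, -1.07, -0.61 and -0.95. PMA1, for the plasma membrane proton pump, had 0.02, 0.55, 0.45 and 0.23, a rise of 0.31 ± 0.097 (SE, adjusted p = 0.049) that was no longer called without replicate 2, 3 or 4. ENA2, for a sodium ATPase with near-identical relatives, fell by 0.33. Of 12 tested genes of Hal5-related kinases, Ppz phosphatases and halotolerance 3 rose (25%, against 15.9% of all genes) and 0 fell. KKQ8, a paralogue of HAL5, was among the 3, with 0.60, 0.78 and 0.33 on replicates 1, 3 and 4. Without replicate 2, on which KKQ8 has no value, 2 genes of that list were called, and without replicate 1, 3 or 4 none was.

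Mating genes were lower in part. BY4741 is a haploid of mating type a, and a table of ratios holds no levels by which the presence of its markers could be checked. Of 10 pheromone response genes 6 fell and 1 rose, with a median of -0.27. PRM1, for a protein of mating cell fusion, had log2 ratios of -1.11, -1.60, -1.13 and -1.20. FIG2, for a mating adhesin, had -1.36, -1.39, -0.89 and -1.09, and AGA1, for the anchor of the agglutinin, had -0.59, -0.70, -0.43 and -0.52. Of 6 genes specific to type a, 2 rose and 3 fell (median -0.14). The rises were those of the pheromone genes, MFA1 with 0.88, 1.37 and 1.10 on replicates 1, 3 and 4 and MFA2 with 0.35, 0.15, 0.60 and 0.49. The falls were those of BAR1, for the protease that degrades alpha factor, at -0.42, of STE2, for the alpha factor receptor, at -0.28, and of STE6, for the exporter of a factor, at -0.30. Each of the STE2 and STE6 calls was lost without some single arrays (replicates 1, 2 and 3 for STE2, replicates 1, 3 and 4 for STE6), and AGA2 had a mean of 0.00. The pheromone response count was 4, 5, 3 and 4 without replicates 1, 2, 3 and 4.

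Growth-related groups moved little and unsteadily. Of 127 cytosolic ribosomal protein genes 4 rose (3.15%) and 23 fell (18.1%), against 15.9% and 15.4% of all genes, with a median of -0.08. Their count of falls was 29, 14, 2 and 8 without replicates 1, 2, 3 and 4. Ribosome biogenesis had 3 of 74 higher (4.05%) and 15 lower (20.3%, median -0.12), with 13, 6, 2 and 8 lower in the same order. NOP1, for fibrillarin, rose against that list with 0.99, 1.08, 0.88 and 0.71. Sterol synthesis had 13 of 28 genes lower and 0 higher (median -0.21), with ERG13 and HMG1, of the mevalonate steps, at -0.71 and -0.66, and 8 and 7 lower without replicates 3 and 4. The acid phosphatase gene PHO3 and the polyphosphate gene VTC2 fell by 0.52 and 0.51 in a phosphate list with 9 of 19 lower and 0 higher. That count was 6, 6 and 5 without replicates 2, 3 and 4.

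The effect of the mutation in BY4741 was then set against that in W303 at the same pH. Of 5278 genes tested in both strains, 1357 were called in both, which is 80.9% of the BY4741 calls and 37.2% of the W303 calls. Over the same genes 31.8% were called in BY4741 and 69.2% in W303. Of these, 1261 had the same direction and 96 the opposite. The difference itself was tested for 4755 genes in a fit of all 12 arrays, and 971 (20.4%) were called, 454 (9.55%) higher and 517 (10.9%) lower in BY4741. That count was 426 with the arrays scaled to 1 spread, 2012 in a fit of the 8 arrays at pH 4.5, and 440 to 753 with 1 array left out. With a dye term in the fit of 12 arrays it was 1027. Of the 79 genes at least 2-fold higher in BY4741, 78 were called in the same direction in W303 and 1 in the opposite. Of the 25 at least 2-fold lower, 24 were tested in W303, where 20 were called in the same direction and 2 in the opposite. The difference was called for 40 of 72 of the higher set (12 higher and 28 lower in BY4741) and for 8 of 21 of the lower set (1 higher and 7 lower). Both sets were chosen by BY4741 means that enter the difference. Their shares thus do not compare with the 20.4% over all genes.

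**Figure D5:**
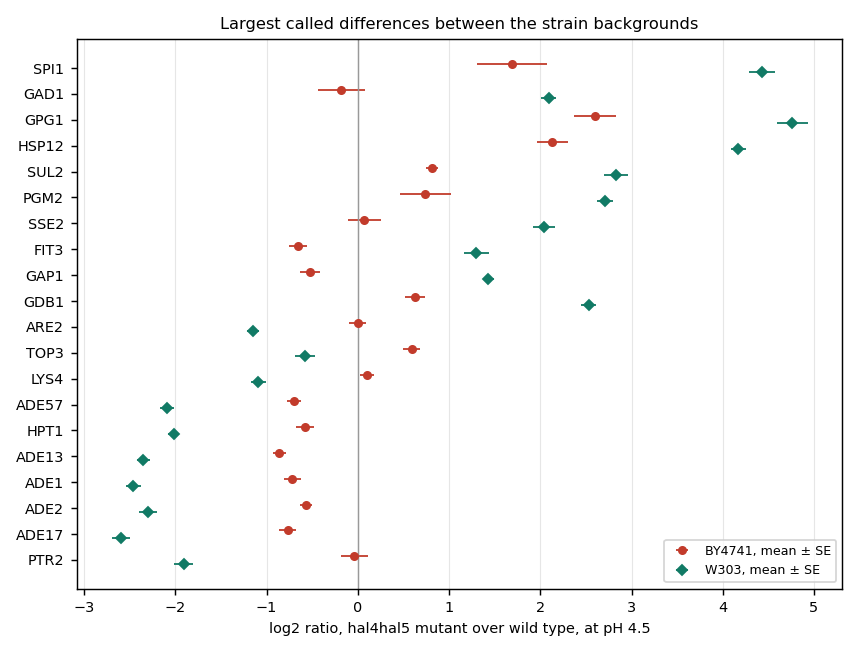
Mean log2 ratio ± SE, mutant over wild type at pH 4.5, in BY4741 (circles) and in W303 (diamonds) for the 10 genes with the largest called difference in each direction. SPI1, GPG1 and HSP12 lie further from 0 in W303, FIT3 and GAP1 lie on opposite sides of 0, and the ADE genes fall in both strains.

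Stress and reserve carbohydrate genes had smaller ratios in BY4741 than in W303. HSP12 had a mean of 2.13 in BY4741 and 4.17 in W303, a difference of -2.04 ± 0.27 (SE, adjusted p = 5.3e-04). SPI1 had 1.69 in BY4741 and 4.43 in W303, a difference of -2.74 ± 0.48 (SE, adjusted p = 0.0031). GDB1, for glycogen debranching, had 0.63 in BY4741 and 2.53 in W303. For PGM2, a phosphoglucomutase gene, the means were 0.74 (not called) in BY4741 and 2.71 in W303. GAD1, for glutamate decarboxylase, had -0.12, 0.60, 0.01 and -1.22 in BY4741, a mean of -0.18 that was not called, against 2.09 in W303. By lists, glycolysis and ethanol had 16 of 21 differences lower in BY4741 and 0 higher, peroxide and thiol defence 15 of 23 lower and 0 higher, and trehalose and glycogen 10 of 16 lower and 1 higher. With the arrays scaled to 1 spread these counts of lower differences were 5, 5 and 7, and with 1 array left out 5 to 15, 10 to 14 and 10 to 12. Small heat shock and hydrophilin genes had 4 of 8 differences lower in BY4741, Haa1 targets 3 of 7 and mannoproteins 4 of 17. With 1 array left out these counts were 3 to 4, 2 to 3 and 2 to 5. With scaled arrays each was 0, so that HSP12 and SPI1, members of these lists, were not called there. A smaller ratio did not extend to YGP1, with 2.44 in BY4741 and 2.82 in W303 and a difference of -0.37 ± 0.29 (SE, adjusted p = 0.38).

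Part of the bc1 complex had larger ratios in BY4741. The bc1 complex had a median of 1.30 in BY4741 and 0.71 in W303, and of 9 differences 4 were called, all higher in BY4741, namely CYT1, QCR7, QCR8 and COR1. The count was 4 in the fit of 8 arrays and with scaled arrays, and 2 to 3 with 1 array left out. CYT1 had a mean of 1.43 in BY4741 and 0.70 in W303, a difference of 0.74 ± 0.15 (SE, adjusted p = 0.0067). PET9 had 0.86 in BY4741 and -0.13 in W303, a difference of 0.99 ± 0.14 (SE, adjusted p = 7.1e-04). The ATP synthase had medians of 1.01 in BY4741 and 0.83 in W303, and of 15 differences 1 was called higher and 1 lower in BY4741. That count depended on the fit, with 6 higher and 1 lower over the 8 arrays at pH 4.5 and 11 higher and 1 lower with the arrays scaled to 1 spread. The lower one was STF2, with 0.71 in BY4741 and 2.12 in W303, and the higher one ATP19, with 1.72 in BY4741 and 0.87 in W303. COX5B, not called in BY4741 at 0.06, rose by 0.94 in W303, and this difference was called (adjusted p = 0.014).

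Purine, sterol and ribosomal protein genes were nearer to 0 in BY4741. For purine ring synthesis the median was -0.63 in BY4741 and -1.65 in W303, and 6 of 9 differences were called higher in BY4741, with 1 lower. ADE17 had -0.77 in BY4741 and -2.60 in W303, a difference of 1.83 ± 0.17 (SE, adjusted p = 4.6e-05). IMD3 and GUA1 did not behave alike, since IMD3 had -1.26 in BY4741 and -1.16 in W303 (adjusted p of the difference 0.58) and GUA1 had -0.35 in BY4741 and -1.11 in W303 (0.0065). Sterol synthesis had 11 of 28 differences higher in BY4741 and 0 lower, and cytosolic ribosomal proteins 37 of 127 higher and 0 lower. With scaled arrays 5, 2 and 14 differences were higher for purine, sterol and ribosomal protein genes, and with 1 array left out 6, 3 to 8 and 12 to 30. PTR2, for a peptide transporter, had -0.20, -0.48, 0.51 and 0.02 in BY4741, against a mean of -1.91 in W303.

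A group of genes had called changes of opposite sign in the 2 strains. SIT1 had a mean of -2.63 in BY4741 and 0.80 in W303, where its arrays ranged from 0.62 to 0.91. Its difference was not tested in the fit of 12 arrays, for want of values at pH 6.0, and was -3.43 ± 0.42 (SE, adjusted p = 4.8e-04) in a fit of the 8 arrays at pH 4.5. FIT3 had -0.66 in BY4741 and 1.30 in W303, and FIT1, of the same family, -0.65 in BY4741 and 0.48 in W303. Yet FTR1 and FET3 fell in both strains, to -1.42 and -0.97 in BY4741 and to -1.07 and -0.57 in W303, with differences that were not called (adjusted p = 0.19 and 0.26). Across the iron regulon 5 of 21 differences were lower in BY4741 and 0 higher, with 8 of 23 lower over the 8 arrays at pH 4.5, 6 of 21 with scaled arrays and 3 to 5 with 1 array left out. ARG1 had -1.06 in BY4741 and 0.76 in W303, and GAP1 -0.52 in BY4741 and 1.43 in W303, a difference of -1.95 ± 0.14 (SE, adjusted p = 7.4e-06). AGA1 had -0.56 in BY4741 and 0.48 in W303. TOP3, for a DNA topoisomerase, was the reverse, with 0.59 in BY4741 and -0.58 in W303.

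Other genes of the BY4741 list changed there and not detectably in W303. PRM1 had -1.26 in BY4741 and -0.09 in W303, with a difference of -1.17 ± 0.12 (SE, adjusted p = 1.3e-04) in the fit of 8 arrays. FIG2 had -1.18 in BY4741 and -0.07 in W303 (adjusted p of the difference 8.2e-04). YOR1 had -0.71 in BY4741 and 0.00 in W303 (0.012). GPX2 fell in both, to -1.53 in BY4741 and -0.40 in W303, a difference of -1.14 ± 0.10 (SE, adjusted p = 4.1e-05). Medium was labelled alike for the 2 strains, but they were hybridised as separate sets, so that strain and set cannot be told apart.

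Gene position was examined as a description. Chromosome medians ran from -0.076 (chromosome III) to 0.039 (chromosome X) over 16 chromosomes, and on single arrays from -0.123 to 0.090. The share of genes called ran from 26.7% on chromosome XIV to 35.9% on chromosome V, around the 31.4% of all genes. Neighbours of SAT4 on chromosome III were DFP3, with 0.38, 0.03 and 0.55 on replicates 1, 3 and 4 (adjusted p = 0.085), and RVS161, with 0.17, 0.34, 0.17 and 0.18 (adjusted p = 0.043, lost without any 1 array). Of the common auxotrophic marker genes, HIS3, MET17, URA3 and TRP1 were not called, with means of 0.15, 0.13, -0.13 and 0.17. ADE2, LYS2 and CAN1 fell by 0.57, 0.45 and 0.37, the LYS2 call being lost without replicate 3 or 4 and that of CAN1 without replicate 4. LEU2 had a value on replicate 4 alone, 5.01.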

How the data were processed

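Poly-dT primed, aminoallyl-labelled cDNA of mutant and wild type shared each 2-channel array, per the labels' protocols. The deposited values are log ratios (read as log2; base, background correction and normalisation are not given in the sources used here) of 5994 ORFs on 12 arrays. The sign was turned where the mutant was in Cy3. Names came from RefSeq R64, which matched 5481 ORFs (4994 with a symbol). Genes with at least 3 values entered limma 3.58.1 (R 4.3.3), with 1 mean per gene, moderated SE and Benjamini-Hochberg adjustment. The difference between strains was fitted over all 12 arrays. Tested on simulated data, the BY4741 fit over 5461 genes recovered 70.0%, 89.2% and 97.0% of changes of 0.5, 1 and 2 on the log2 scale. The difference fit over 4755 genes recovered 28.8%, 87.2% and 98.4%. Unchanged genes made up 6.0% (11) and 6.2% (10) of the calls in these fits. The simulation drew noise independently for each array and changed few genes (60, 74 and 66 in the BY4741 fit). In the data 31.4% of genes were called and arrays of 1 dye orientation were more alike, so these shares may not hold there. The number of arrays limits precision, and spot intensities were not used here.

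The members and all gene lists were chosen with earlier results of these data known. Genes named are the deleted genes, their neighbours and markers, the 20 largest called rises and falls, up to 4 called members of each list in its main direction and 2 in the other (any member of lists of at most 17), and the 10 largest called differences each way. Deviations of same-numbered arrays of the strains correlated between -0.15 and 0.13 over 4698 genes. The arrays numbered 4 had opposite dye orientations in the strains, so these values mix dye with pairing. Whether replicate numbers mark a shared culture or day was not tested, and the main fit did not pair them. Alternatives were a dye term, scaling, medians subtracted, other minimums of arrays, robust moderation, SAM, a 1.5-fold threshold and each array left out. Promoter motifs were not analysed here, and 1 gene that the naming rule covers is not reported here.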

Additional observations from a re-analysis of the deposited data

Results flagged for a closer look

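Of 217 groups of 4 values examined, 12 held 1 array that stood apart from the other 3 by Dixon's criterion for 4 values, and chance gives about 1 in 20. Replicate 4 stood apart for HIS4 (-1.50), SSA2 (-1.19), SSA3 (-0.95), ADE2 (-0.43), AGA2 (0.23) and the median of 7 meiosis genes (0.02). Replicate 2 did so for HMG1 (-0.73), COX5B (0.36) and RVS161 (0.34), and replicate 1 for STE6 (-0.52), ENA2 (-0.23) and the median of 33 proteasome genes (-0.06).

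The ratio, mutant over wild type, differed between BY4741 and W303 at pH 4.5 for 75 of the genes named, by the limma test of the difference with an adjusted p below 0.05. Among them, the 10 largest called differences each way were named for that difference, so their calls were fixed in advance. Others were named for large BY4741 values that enter the same difference. Over all genes tested for the difference, 971 of 4755 (20.4%) were called. Values are BY4741 minus W303 on the log2 scale. The furthest below 0 were SPI1 (-2.74), GAD1 (-2.27), GPG1 (-2.16), HSP12 (-2.04), SUL2 (-2.02), PGM2 (-1.97), SSE2 (-1.97), FIT3 (-1.96), GAP1 (-1.95), GDB1 (-1.90), HIS3 (-1.85), ARG1 (-1.82) and MET17 (-1.77). HIS3 and MET17 are among the common auxotrophic marker genes, and the auxotrophies of the strains were not analysed here. Next came STF2 (-1.42), CIT2 (-1.41), GPX1 (-1.36), NOP1 (-1.22), DDR48 (-1.16), HXK1 (-1.16), ACH1 (-1.14), GPX2 (-1.14), FIG2 (-1.11), CYB2 (-1.07), AGA1 (-1.04) and MET5 (-1.01). Smaller negative differences were those of AGA2 (-0.99), COX5B (-0.88), CAN1 (-0.85), PRX1 (-0.79), PDR5 (-0.71), YOR1 (-0.71), ILV5 (-0.70), DIP5 (-0.63), AQR1 (-0.62), PFK2 (-0.62), HSC82 (-0.58), SSA2 (-0.58), YRO2 (-0.58), MET16 (-0.54), GCV2 (-0.49), QDR2 (-0.44), KGD2 (-0.42), VTC2 (-0.42), NDI1 (-0.39), GLN1 (-0.38) and ADE16 (-0.37). Differences were positive for PTR2 (1.88), ADE17 (1.83), ADE1 (1.73), ADE2 (1.73), ADE13 (1.49), HPT1 (1.43), ADE57 (1.39), LYS4 (1.20), TOP3 (1.18), ARE2 (1.15), PET9 (0.99), MTD1 (0.95), ATP19 (0.85), BAT2 (0.81), GUA1 (0.76), CYT1 (0.74), OAC1 (0.69), PUT1 (0.59), COX5A (0.55), QCR8 (0.55), QCR7 (0.54), COX4 (0.51), SER3 (0.50), GCV3 (0.49), LEU3 (0.44), COR1 (0.41), SHM2 (0.41), ERG13 (0.37) and ENA2 (0.32). Strain and array set cannot be told apart in these values.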

How the results depend on the processing

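Counts of called genes were within 1.5 times of those reported with array medians subtracted (1724), arrays scaled (1737), robust moderation (1735), one-class SAM (1641), a dye term (2400) and values needed on 4 arrays (1644) or 2 (1714). A limma test against a 1.5-fold change called 74 genes, 53 higher and 21 lower, with 50 at least 2-fold higher. With 1 array left out the BY4741 counts ranged from 739 to 1360 genes, 401 to 721 higher and 338 to 639 lower, the lowest without replicate 3. Leaving out an array leaves 3 values a gene and fewer genes to test. The count at least 2-fold higher was 58 to 84 and that at least 2-fold lower 22 to 28. For the difference between BY4741 and W303, scaling the arrays gave 426 genes (217 higher, 209 lower in BY4741), and the cause was not tested. Fitting only the 8 arrays at pH 4.5 gave 2012 (947 higher, 1065 lower). A dye term gave 1027 (486 higher, 541 lower). Leaving out 1 array gave 440 to 753 genes, 179 to 348 higher and 261 to 405 lower. With the replicate number as a replicate block 717 differences were called, 325 higher and 392 lower, and 2 of 4 BY4741 arrays correlated best with the W303 array of their own number. Means that changed sign with 1 array left out were those of genes not called: COX5B (-0.04 to 0.11, below 0 without replicate 2), GAD1 (-0.44 to 0.16, above 0 without replicate 4), PTR2 (-0.22 to 0.11, above 0 without replicate 1 or 2), RTG2 (-0.01 to 0.11, below 0 without replicate 2), RTG3 (-0.15 to 0.04, above 0 without replicate 3), SSE2 (-0.18 to 0.21, below 0 without replicate 2), AGA2 (-0.07 to 0.03, below 0 without replicate 4) and ARE2 (-0.11 to 0.07, and 0.00 with array medians subtracted). Over 648 recomputed list counts of higher genes, 532 stayed within 1.5 times, and of 648 counts of lower genes 533 did.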

Other observations

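Some genes followed the dye and not the strain, and were picked after their values were seen. POP6, for a subunit of RNase P and MRP, had log2 ratios, mutant over wild type, of 3.00, -3.39, 2.68 and -1.42 on replicates 1 to 4, and JAC1, for a mitochondrial iron-sulphur co-chaperone, had 2.81, -3.23, 2.58 and -1.21. In W303 at pH 4.5 the arrays ranged from -0.49 to 0.23 for POP6 and from -0.29 to 0.10 for JAC1. With a dye term in the fit, limma called a dye effect for 1 gene of 5461, BIL2 (0.90, -1.21, 0.90 and -0.90, adjusted p = 0.036). In the same fit 1160 genes (21.2%) had an unadjusted p below 0.05, where a share of 0.05 would come without any dye effect. Dye effects too small to be called may thus be more common, and the main fit holds no dye term.

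A split by replicate number in place of dye was seen in CMK2, a calmodulin-dependent kinase gene, with 1.48, 1.83, 0.18 and -0.21, the same order as for HSP30.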
